A study of Mus musculus with 4 samples.

Results

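The genes described here encode the proteins of the mitochondrial ribosome that carry the symbols Mrpl (large subunit) or Mrps (small subunit) followed by a number. They were chosen by symbol, without pseudogenes and without Mrpl23. The rule found 76 of the 48795 genes in the table, of which 47 are Mrpl genes and 29 are Mrps genes. Their RNA was measured by RNA-seq in mouse telencephalon, the embryonic forebrain, at embryonic day 14. The Ctcf-null telencephalon had a floxed Ctcf gene and Cre recombinase under Nestin control (2 libraries), and the controls carried the floxed Ctcf gene (2 libraries). All 4 libraries were of the C57BL/6 strain, and the study's design text describes them as 2 pairs of 1 Ctcf-null and 1 control sample. Nestin sequences drive Cre mainly in neural progenitors and their descendants, so blood, vessel and microglial cells of the tissue may keep Ctcf. Ctcf encodes a DNA-binding zinc finger protein that organizes chromatin loops.

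The mitochondrial ribosome translates the few membrane proteins of the respiratory chain and the ATP synthase that are encoded in mitochondrial DNA. Its RNA comes from the mitochondrial genome, while every one of its proteins is encoded in the nucleus, made in the cytosol and imported. Part of these proteins have bacterial homologs, and the rest are specific to mitochondria. In human patients, inherited defects of several of them reduce oxidative phosphorylation, with the brain and heart among the tissues affected.

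The libraries held 43812558 and 25519331 reads in Ctcf-null telencephalon, and 41294659 and 27619441 reads in controls, recovered from the deposited values. Ctcf itself had 38.9 and 62.0 normalized read counts in the Ctcf-null libraries, against 437 and 1133 in the controls, a log2 fold change of -3.81 (SE 0.16, limma adjusted p = 3.3e-12). Libraries of the same pair resembled each other more than libraries of the same genotype. The correlation of log2 counts across genes was 0.987 and 0.984 within the pairs, 0.903 between the Ctcf-null libraries and 0.894 between the controls. Comparisons were therefore made within pairs, as the design describes. The labels do not state whether each library is a different embryo, and the spread that the p-values rest on may therefore be technical.

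Promoter windows of the members, 250 bases before to 50 bases after the transcription start in RefSeq (GRCm38.p6), were available for 67 of the 76 genes. Windows are printed for the gene with the largest fall, Mrps2, and for Mrps27 and Mrps30, which also fell and lack or hold other promoter words. Capitals mark the matches, read 5′ to 3′ on the strand of the gene. Mrps2 lies at chr2:28467816-28468115 on the plus strand, Mrps27 at chr13:99344536-99344835 on the plus strand, and Mrps30 at chr13:118387203-118387502 on the minus strand.
Mrps2: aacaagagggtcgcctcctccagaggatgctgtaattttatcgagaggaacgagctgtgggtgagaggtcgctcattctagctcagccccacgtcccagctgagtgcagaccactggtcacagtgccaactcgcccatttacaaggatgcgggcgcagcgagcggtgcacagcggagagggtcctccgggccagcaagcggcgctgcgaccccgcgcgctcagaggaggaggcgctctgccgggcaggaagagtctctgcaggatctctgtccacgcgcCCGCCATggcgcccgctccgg
Mrps27: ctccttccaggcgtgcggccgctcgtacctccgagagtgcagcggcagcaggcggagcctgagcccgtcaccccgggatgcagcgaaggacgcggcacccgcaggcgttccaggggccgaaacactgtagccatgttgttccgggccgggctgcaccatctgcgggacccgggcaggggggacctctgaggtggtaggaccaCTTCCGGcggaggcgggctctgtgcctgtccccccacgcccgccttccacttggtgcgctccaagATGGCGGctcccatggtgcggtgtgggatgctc
Mrps30: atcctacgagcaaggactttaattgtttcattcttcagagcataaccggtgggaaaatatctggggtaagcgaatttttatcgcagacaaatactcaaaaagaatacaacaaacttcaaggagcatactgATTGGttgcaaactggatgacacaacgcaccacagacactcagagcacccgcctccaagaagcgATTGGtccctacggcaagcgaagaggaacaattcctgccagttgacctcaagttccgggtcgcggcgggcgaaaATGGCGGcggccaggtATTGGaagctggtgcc
The Mrps2 window held 1 of the words searched, ATGGCGG at 29 counted from the start site, on the opposite strand and so printed as CCGCCAT. The Mrps27 window held the ETS word on the opposite strand at -48 and ATGGCGG at 17. The Mrps30 window held the CCAAT word on the opposite strand (printed as ATTGG) at -120, -56 and 34, and ATGGCGG at 18. Across the 67 windows, on both strands, the ETS word CCGGAAG, the core bound by GABP-type factors, was in 23 members (34.3%, against 8.86% of all 32851 windows of this length). The YY1 word ATGGCGG, whose letters include a start codon, was in 13 members (19.4%, against 4.05%), and the NRF1 word GCATGCG in 8 (11.9%, against 3.58%). CCAAT was in 27 members (40.3%, against 37.4%) and the E-box CACGTG in 5 (7.46%, against 7.15%). A CTCF word, AGGGGGC, was in 3 members (4.48%, against 10.6%). Members were counted by 1 window each, the nearest to the annotated start. The background took every window, not reduced to 1 per gene or to expressed genes, so the percentages rest on unlike units. Matches of different words may share bases. Of the 14 members with a window that fell in Ctcf-null telencephalon, 5 held the ETS word, 4 the YY1 word and 1 the CTCF word. These matches describe letters in the window and show no binding, and no match says nothing of the factor.

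Transcripts of the 75 tested members were mostly slightly lower in Ctcf-null telencephalon, and among them Mrps2 was lower by far more than the others. Mrpl23, the large-subunit gene left out by the rule, fell more than any member, with 301 and 796 counts in Ctcf-null telencephalon and 1957 and 3697 in controls (log2 fold change -2.46, SE 0.10, limma adjusted p = 1.6e-12). Of the 75 members with enough reads to test, 15 fell, 0 rose and 60 did not pass (limma with pair as a block, adjusted p under 0.05 over 22158 genes). The share that fell was 20.0%, beside 10.1% of all genes tested, and the share that rose was 0, beside 3.67%. At an unadjusted p under 0.05, 43 members were lower, against 19.3% of all genes, and 0 higher, and the count tests on recovered reads gave fewer calls. edgeR with TMM called 5 of the 75 members lower (7.13% of all genes) and 0 higher (4.8%). With upper-quartile scaling edgeR called 3 (4.82%) and 0 (6.13%), and DESeq2 called 1 (2.45%) and 0 (1.3%). In each of these count tests the share of members that fell was below that of all genes, unlike in limma on the deposited values. The median log2 fold change of the members, Ctcf-null over control, was -0.19 (quartiles -0.24 and -0.11), and that of all tested genes was -0.067. The difference of these medians was -0.12 on the log2 scale. On the deposited scaling, the members' own median was -0.16 in pair 1 and -0.19 in pair 2, where all genes had medians of -0.057 and -0.080. In both pairs 64 of the 75 members had a negative fold change (85.3%, against 42.9% of all genes), 5 had a positive one in both and 6 changed sign between pairs. The share negative in both pairs was 94.7% for cytosolic ribosomal protein genes and 85% for nuclear oxidative phosphorylation genes, so it was not particular to the members. Because RNA was taken from whole tissue, fewer cells of a type and less RNA per cell cannot be told apart.

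**Figure D1:**
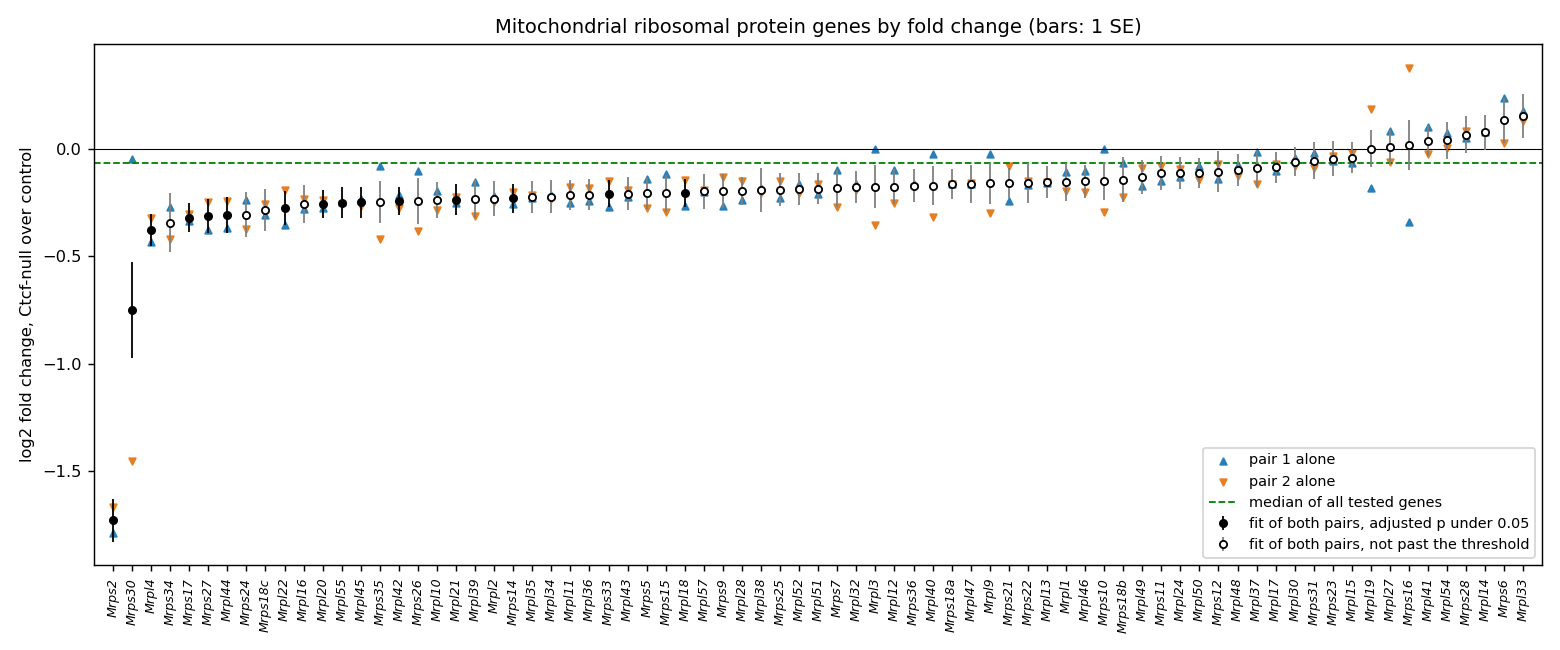
Log2 fold change, Ctcf-null over control, of each tested mitochondrial ribosomal protein gene from the limma fit with pair as a block, with its standard error. Mrps2 stands apart at -1.73, Mrps30 follows at -0.75, and 73 of the 75 genes lie within 0.5 of 0, most of them below it.

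The size of the shift was small for single genes. The median standard error of a member was 0.08, 1 member (Mrps2) was lower by 2-fold or more, and 14 further members had adjusted p-values between 0.05 and 0.1. When the fold changes were measured from the median gene of each library in place of 0, 3 members fell (Mrps2, Mrpl4 and Mrps17) and 0 rose. Beside them, 5.41% and 4.02% of all genes fell and rose, so the share of members that fell was below that of all genes. Without the pair block, 0 members and 0 genes in all passed, since the spread between pairs then entered the error, and the smallest unadjusted member p in limma was 0.147.

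Mrps2 encodes a small-subunit protein with a bacterial homolog, and it changed most of the tested members. It had 158 and 582 normalized counts in the Ctcf-null libraries and 551 and 1854 in the controls. Each Ctcf-null library was well below the control of its own pair, while Ctcf-null 2 was slightly above control 1. With the pairs ignored, the groups overlapped for Mrps2 and for every other tested member (0 of 75 did not overlap). All 75 were also higher in pair 2 in both genotypes, which favours overlap, and the share over all genes was not counted. The log2 fold change was -1.73 (SE 0.10, limma adjusted p = 1.9e-10), or 3.32-fold lower, with -1.79 in pair 1 and -1.67 in pair 2. Mrps2 was the only member to pass in all 10 fits that kept the pairs, with adjusted p-values of 3.7e-12 in edgeR, 1.7e-24 in DESeq2 and 1.2e-07 in limma after quantile normalization. Without the pair block its standard error was 0.97 and its limma adjusted p was 1.00.

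The gene lies at chr2:28468066-28471178 on the plus strand (GRCm38). Of 9 annotated genes reaching within 100 kb of it, 8 were tested, 1 fell and 0 rose. That gene was the processed pseudogene Rpsa-ps9, 9.1 kb to the right, with 726 and 518 counts in Ctcf-null telencephalon and 914 and 637 in controls (log2 fold change -0.32, limma adjusted p = 0.028). The nearest neighbour, 1700007K13Rik, starts 1734 bases away on the opposite strand and had a log2 fold change of 0.04. Ppp1r26 (-0.12), Ralgds (-0.20) and Gtf3c5 (-0.17) did not pass either. Neighbours with few reads spanned wider, as Cel at -0.85 and Gm10134 at 0.91, and neither passed.

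**Figure D2:**
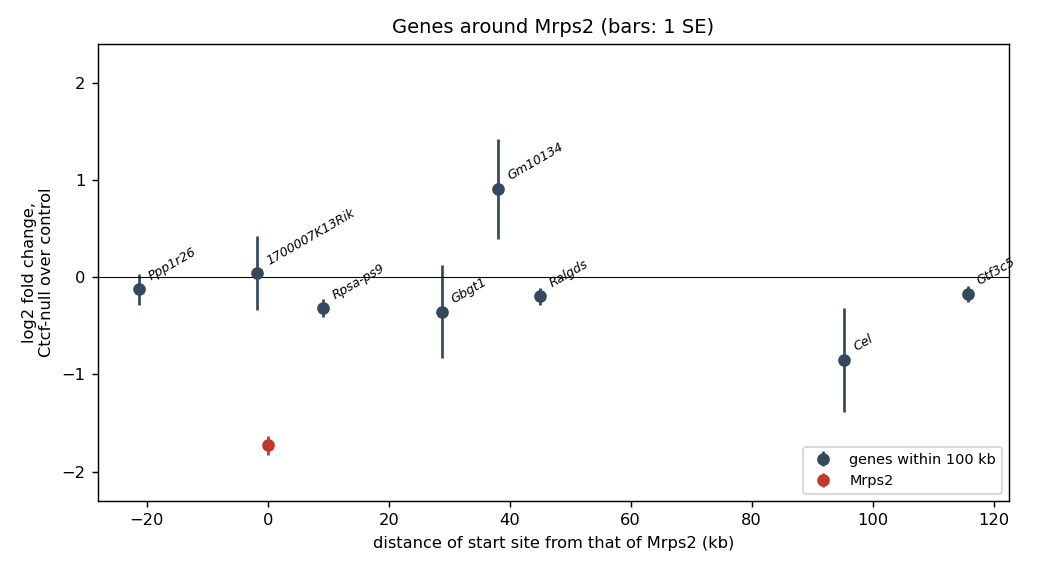
Log2 fold change, Ctcf-null over control, with standard errors, of Mrps2 and the tested genes around it, against the distance of their start sites from that of Mrps2 in kb. Mrps2 at -1.73 is the lowest point, and the neighbours that did not pass lie between -0.85 and 0.91.

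Mrps30, which keeps a small-subunit symbol although structures place the protein in the large subunit, had the next largest fall. Its counts were 59.4 and 211 in Ctcf-null telencephalon, against 61.4 and 580 in controls. The pair 1 libraries were nearly equal and the difference came from pair 2, with log2 fold changes of -0.05 and -1.45. The fitted value was -0.75 (SE 0.22, limma adjusted p = 0.030), and it passed in 5 of the 10 fits with the pair block. This SE rests mostly on the spread of other genes and is smaller than the gap between the 2 pairs of Mrps30 alone would give. Measured from the median gene its limma adjusted p was 0.078, and in DESeq2 it was 0.15.

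The other members that fell were lower by -0.38 to -0.20 on the log2 scale. Among the small-subunit proteins, Mrps17, which has a bacterial homolog, had 2546 and 3956 counts in Ctcf-null telencephalon and 3215 and 4879 in controls. Both Ctcf-null libraries were below their pair's control, and the log2 fold change was -0.32 (SE 0.07, limma adjusted p = 0.0030). Mrps27, a mitochondria-specific RNA-binding protein of the pentatricopeptide repeat family, had 979 and 1396 counts in Ctcf-null telencephalon and 1273 and 1655 in controls. It was again lower within each pair, by -0.38 and -0.25, with a fitted log2 fold change of -0.31 (SE 0.08, limma adjusted p = 0.013). Mrps33, specific to mitochondria and abundant here, had 5686 and 7775 counts in Ctcf-null telencephalon and 6847 and 8614 in controls. Its log2 fold change was -0.21 (limma adjusted p = 0.036), and that of Mrps14, a protein with a bacterial homolog, was -0.23 (limma adjusted p = 0.025).

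Among the Mrpl genes, Mrpl4 changed most. It has a bacterial homolog and had 827 and 3136 counts in Ctcf-null telencephalon and 1116 and 3925 in controls. Both pairs were lower in Ctcf-null telencephalon, by -0.43 and -0.32, although the 2 libraries of a genotype differed far more than that. The fitted log2 fold change was -0.38 (SE 0.08, limma adjusted p = 0.0019), and 8 of 10 fits with the block passed. DESeq2 gave an adjusted p of 0.068 and limma after quantile normalization gave 0.055.

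Further large-subunit genes fell by less. Mrpl44, a mitochondria-specific protein related to ribonuclease III, had 553 and 1571 counts in Ctcf-null telencephalon and 715 and 1860 in controls (log2 fold change -0.31, limma adjusted p = 0.020). Mrpl44 overlaps Wdfy1 on the opposite strand, and the reads of these genes cannot be told apart without strand. Mrpl45, which anchors the ribosome to the inner membrane, had 1693 and 2275 counts in Ctcf-null telencephalon and 1989 and 2737 in controls (log2 fold change -0.25, limma adjusted p = 0.026). Mrpl22, which lines the tunnel, had 957 and 1828 counts in Ctcf-null telencephalon and 1225 and 2090 in controls (log2 fold change -0.27, limma adjusted p = 0.027). Each of these 3 genes was lower in both Ctcf-null libraries than in the paired control, while pair 2 was higher than pair 1 in both genotypes.

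Mrpl20, a protein with a bacterial homolog, had 2670 and 5248 counts in Ctcf-null telencephalon and 3231 and 6184 in controls (log2 fold change -0.26, limma adjusted p = 0.013). Mrpl42, which is specific to mitochondria, had 3850 and 4979 counts in Ctcf-null telencephalon and 4461 and 6015 in controls (log2 fold change -0.24, limma adjusted p = 0.017). Mrpl55 (-0.25), Mrpl21 (-0.24) and Mrpl18 (-0.20), which have bacterial homologs, had limma adjusted p-values of 0.027, 0.034 and 0.048. Mrpl18 overlaps the more abundant Tcp1 on the opposite strand. The members that fell had a median mean count of 2251, against 1494 for the tested members that did not pass. The next member outside the threshold had a limma adjusted p of 0.052.

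**Figure D3:**
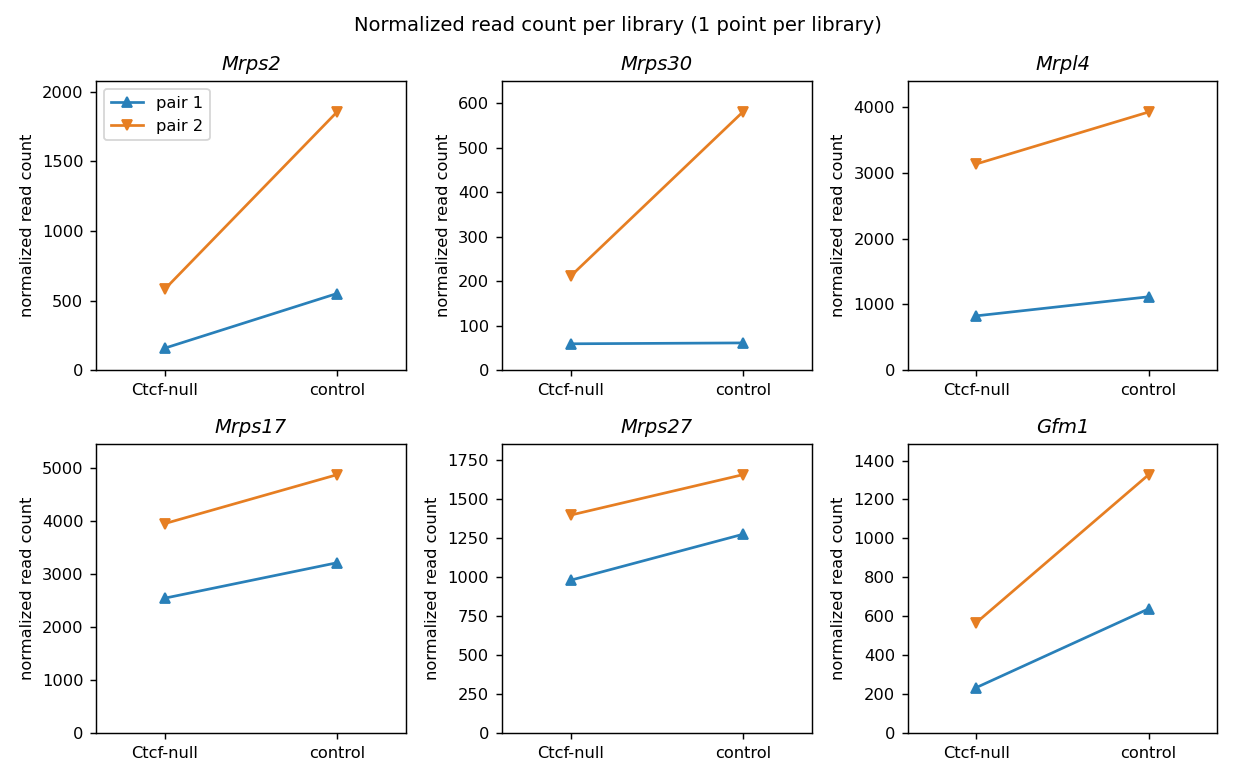
Normalized read counts in each library of Mrps2, Mrps30, Mrpl4, Mrps17, Mrps27 and, outside the family, the elongation factor gene Gfm1, with Ctcf-null left of control and lines joining the libraries of a pair. The lines of Mrps2 differ strongly in both pairs (158 against 551 and 582 against 1854), and the lines of Mrps30 in pair 2 (211 against 580).

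Neither subunit and neither evolutionary class stood apart by its counts. By structure, 10 of 48 tested large-subunit genes fell (median log2 fold change -0.18) and 5 of 26 small-subunit genes fell (median -0.19). Of the genes with bacterial homologs 9 of 45 fell (median -0.18), and of the mitochondria-specific genes 6 of 29 fell (median -0.19). Mrps36 was counted in neither subunit, since its protein is now assigned to the 2-oxoglutarate dehydrogenase complex, and it did not pass (log2 fold change -0.17, limma adjusted p = 0.15). Mrps36 and Mrpl48 have pseudogene copies in the table, so their counts are uncertain. The 3 paralogs of Mrps18, of which the protein of Mrps18a sits in the large subunit, did not pass. Mrps18c had 393 and 671 counts in Ctcf-null telencephalon and 487 and 802 in controls (log2 fold change -0.28, SE 0.10, limma adjusted p = 0.060). Mrps18a and Mrps18b had log2 fold changes of -0.16 and -0.14, with limma adjusted p-values of 0.13 and 0.41.

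No member rose. Mrpl33, with a bacterial homolog, had the highest fold change, with 408 and 601 counts in Ctcf-null telencephalon and 361 and 549 in controls (log2 fold change 0.15, SE 0.10, limma adjusted p = 0.37). Mrps6, which overlaps Slc5a3, had 221 and 1254 counts in Ctcf-null telencephalon and 187 and 1231 in controls (log2 fold change 0.13, limma adjusted p = 0.45). For both, the Ctcf-null library was above its paired control in each pair, by less than the pairs differed. Besides Mrps30, the pairs disagreed most for Mrps16 and Mrpl19. Mrps16 had 617 and 2471 counts in Ctcf-null telencephalon and 782 and 1900 in controls, that is -0.34 in pair 1 and 0.38 in pair 2. Mrpl19 had 1295 and 2522 counts in Ctcf-null telencephalon and 1468 and 2218 in controls, that is -0.18 and 0.19. Their fitted log2 fold changes were 0.02 and 0.00. Mrpl53 had 0 reads in both Ctcf-null libraries, and 1 read in control 1 and 0 in control 2, and was not tested. A count of 0 allows up to 3 reads, worth 2.12 and 3.64 normalized counts in the Ctcf-null libraries and 3.75 in control 2.

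The levels of the members spanned a wide range although their proteins are present in fixed proportion in a ribosome. Per kb of transcript, the mean normalized count over the 4 libraries was highest for Mrps21 (8012), Mrps33 (6532) and Mrpl20 (5350), and lowest among tested members for Mrps30 (60.0), Mrpl33 (175) and Mrps26 (188). Mrps30 was the lowest in every library, and the order above it depended on the pair. Next above it came Mrps34 in pair 1 (19.9 per kb in Ctcf-null and 24.1 in control) and Mrpl33 in pair 2 (219 per kb in Ctcf-null and 200.3 in control). Mrps21 had 2715 and 4726 counts in Ctcf-null telencephalon and 3209 and 4989 in controls, and did not pass (log2 fold change -0.16, limma adjusted p = 0.14). Mrps26 had 151 and 1262 counts in Ctcf-null telencephalon and 162 and 1644 in controls, and did not pass either (log2 fold change -0.24, limma adjusted p = 0.15).

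The difference between pairs was larger than that between genotypes. All 75 tested members were higher in pair 2 than in pair 1 in both genotypes, against 48.5% of all tested genes. Similar sets shared this, with 96.25% of nuclear oxidative phosphorylation genes, 73.3% of cytosolic ribosomal protein genes and 93.75% of mitochondrial translation factors. The median log2 difference, pair 2 minus pair 1, was 1.08 for the members (range 0.31 to 4.51) and 0.08 for all genes. In those 3 sets it was 0.70, 0.35 and 0.93. The members took 0.268% and 0.597% of the reads in Ctcf-null telencephalon and 0.258% and 0.608% in controls. By this share the members were slightly higher in Ctcf-null telencephalon in pair 1 and slightly lower in pair 2. Mrps34, a mitochondria-specific small-subunit protein, differed most, with 37.5 and 833 counts in Ctcf-null telencephalon and 45.4 and 1114 in controls, and Mrpl50 least (0.31). Mrps12, the decoding-centre protein, had 144 and 2308 counts in Ctcf-null telencephalon and 159 and 2420 in controls, a pair difference of 3.95. The pair difference was larger for GC-rich transcripts. As a description across genes of the same 4 libraries, it correlated with GC percent at r = 0.47 (rho = 0.43, n = 75) for the members and r = 0.38 (rho = 0.35, n = 22020) for all genes with a GC value. The part of base composition in the genotype difference was not tested by itself. In a fit corrected for GC and length together, the members' median was -0.17 and that of all genes -0.074. In that fit 11 members fell and 1 rose, beside 7.18% and 2.51% of all genes.

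**Figure D4:**
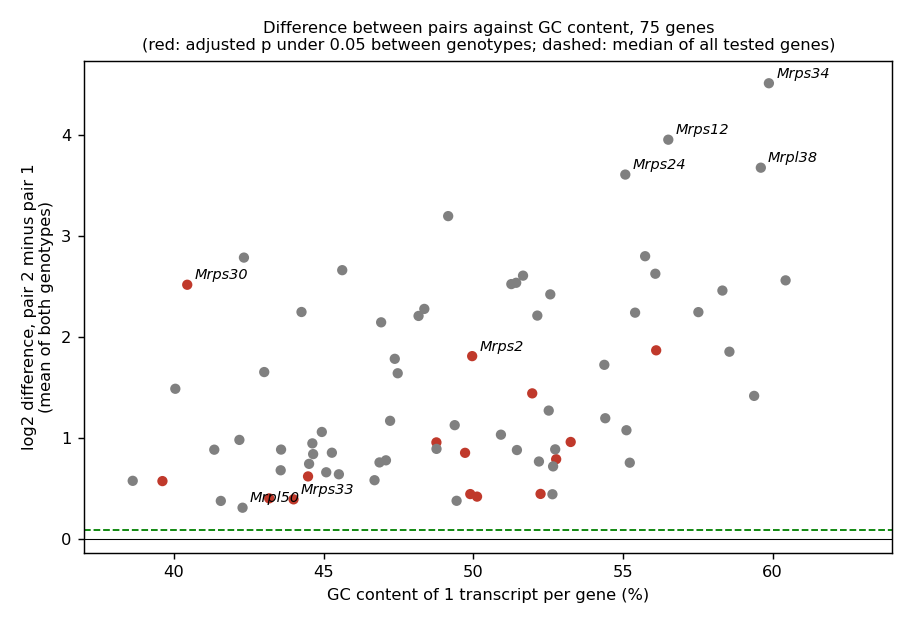
Log2 difference of normalized counts between pair 2 and pair 1, averaged over both genotypes, against the GC percent of the transcript, for the tested members. The median of all tested genes is drawn as a dashed line. The members lie between 0.31 and 4.51 on the vertical axis, all above 0, and the points rise with GC percent.

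Fold changes of single members agreed only loosely between pairs. Across the 75 members, Pearson's r between the pair 1 and pair 2 fold changes was 0.60. Without Mrps2 it was 0.14 (n = 74), and without Mrps2 and Mrps30 it was 0.32 (n = 73). The ranking of the members below these genes is thus poorly determined with 2 pairs.

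Many members share a promoter region with another gene. For 20 of them the start of a gene on the other strand lay within 1000 bases, head to head. Of these 20 partners 3 fell and 2 rose, beside 10.1% and 3.67% of all genes, with a median log2 fold change of -0.11. Whether partners change with their members was not tested. Ptcd2, a pentatricopeptide repeat gene starting 81 bases from Mrps27, fell together with it (-0.42). Fau, which encodes a cytosolic ribosomal protein fused to a ubiquitin-like peptide, fell beside Mrpl49 (-0.24 for Fau, -0.13 for Mrpl49, which did not pass). Sars2, the mitochondrial seryl-tRNA synthetase gene, starts 172 bases from Mrps12 and rose by 0.66, while Mrps12 had -0.10 and did not pass. In all, 41 members overlap another annotated gene, and for 23 of them that gene had at least 10% of the member's count.

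Among genes that build or serve the mitochondrial ribosome, some fell and few rose. Of 6 ribosomal proteins with other names, 1 fell. This was Chchd1, a small-subunit protein, with 2533 and 4516 counts in Ctcf-null telencephalon and 2941 and 5271 in controls (log2 fold change -0.22, limma adjusted p = 0.034). Chchd1 passed in 4 of the 10 fits with the pair block. Of 27 tested assembly factors, 7 fell and 0 rose (median -0.17). The largest fall was that of C1qbp, a matrix protein required for mitochondrial translation, with 160 and 2833 counts in Ctcf-null telencephalon and 213 and 5421 in controls (log2 fold change -0.67, SE 0.11, limma adjusted p = 0.0002). The rRNA methyltransferase genes Mrm1 (-0.63) and Mrm2 (-0.46) fell too.

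Of 16 tested translation factors, 3 fell and 0 rose (median -0.16). Gfm1, the elongation factor that moves the ribosome along the message, had 233 and 567 counts in Ctcf-null telencephalon and 638 and 1327 in controls. Like Mrps2 it was lower in both pairs, by -1.45 and -1.22, with a fitted log2 fold change of -1.34 (SE 0.10), and it passed in all 10 fits with the block. Tsfm (-0.40) and Tufm (-0.22), the partner and the carrier in tRNA delivery, fell less, and passed in 9 and 4 of these 10 fits. Of 20 mitochondrial tRNA-charging genes, 3 fell (Aars2, Yars2 and Qrsl1) and 1 rose (Sars2), with a median of -0.10. Aars2 had 7.78 and 237 counts in Ctcf-null telencephalon and 28.5 and 404 in controls (log2 fold change -1.26, SE 0.24).

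The mitochondrial genome's own products did not move as one. Its large rRNA, mt-Rnr2, had 29109 and 42649 counts in Ctcf-null telencephalon and 30517 and 56349 in controls, and fell (log2 fold change -0.24, limma adjusted p = 0.031). It passed in 4 of the 10 fits with the block, and its log2 fold changes were -0.07 in pair 1 and -0.40 in pair 2. The small rRNA, mt-Rnr1, had a log2 fold change of -0.22 and did not pass (limma adjusted p = 0.067). Its values in the pairs were much the same, -0.04 and -0.40. Of its 13 mRNAs, 7 rose and 3 fell (median 0.22), among them mt-Nd3 (0.55), which rose, and mt-Nd6 (-0.50), which fell. Of 19 tested genes for the maintenance and expression of mitochondrial DNA, 1 fell (Hsd17b10) and 1 rose (Polg, the DNA polymerase, 0.56), with a median of -0.06. Tfam (-0.01) and Polrmt (0.07), the packaging factor and the RNA polymerase, did not pass. Among 12 regulators of mitochondrial genes, Myc (-0.55) and Gabpb1 (-0.36) fell and Gabpb2 (0.62) rose. Nrf1 (-0.15) and Gabpa (0.07) did not pass.

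Similar gene sets had medians of similar size. Of 75 cytosolic ribosomal protein genes 31 fell (median log2 fold change -0.18), and of 80 tested nuclear genes for oxidative phosphorylation subunits 26 fell and 1 rose (median -0.16). These counts are from limma on the deposited values, where 10.1% of all genes fell and 3.67% rose. Measured from the median gene, 5 and 8 genes of these sets fell (5.41% of all genes), and in DESeq2 4 and 6 (2.45%). After quantile normalization 4 fell and 4 rose in the cytosolic set, and 6 fell and 6 rose in the other. Relative to the median of all genes, the mitochondrial ribosomal set was at -0.12, the cytosolic set at -0.11 and the oxidative phosphorylation set at -0.094. The difference between the sets was not tested. The median of the members was below 0 and below that of all genes in each of the 10 fits with the pair block, between -0.19 and -0.062. The smallest value came from quantile normalization, with -0.062 for the mitochondrial ribosomal set, -0.014 for the cytosolic set, -0.024 for the oxidative phosphorylation set and 0.0017 for all genes. There 1 member fell (4.13% of all genes) and 0 rose (4.83%), so the share that fell was below that of all genes.

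**Figure D5:**
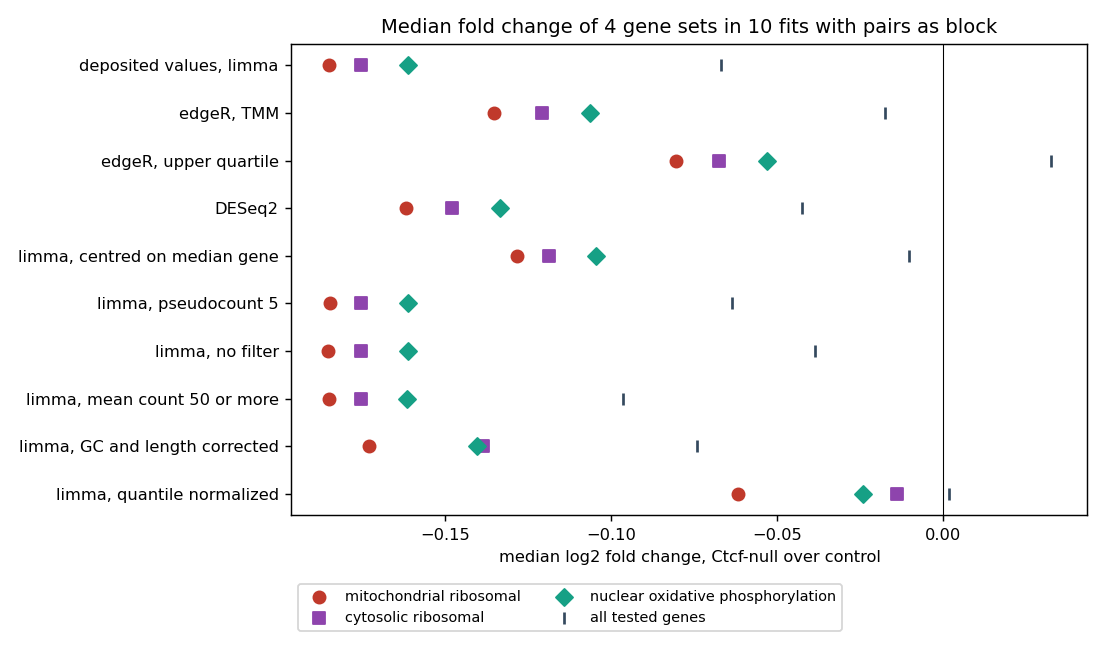
Median log2 fold change, Ctcf-null over control, of 4 gene sets under each fit that kept the pairs. The mitochondrial ribosomal set is below all tested genes in every fit, with -0.19 against -0.067 with limma on the deposited values and -0.062 against 0.0017 after quantile normalization.

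Markers of other cells moved as well. Of 12 microglial markers 2 rose and 0 fell (median log2 fold change 0.30), and of 10 choroid plexus markers 3 rose and 0 fell (median 0.25). Of 8 neuronal markers and of 8 radial glial markers 2 each fell and 0 rose (medians -0.12 and -0.15). Of 8 endothelial markers 2 fell, and of 10 erythroid markers 0 fell or rose, with medians of -0.59 in pair 1 and 0.15 in pair 2. Summed counts were 2398 and 5494 in Ctcf-null telencephalon and 1859 and 4420 in controls for the microglial markers. They were 97174 and 37008 in Ctcf-null telencephalon and 74300 and 25736 in controls for the choroid plexus markers. Of the neural cells, they were 231234 and 185745 in Ctcf-null telencephalon and 316891 and 229064 in controls for the neuronal markers, and 35352 and 61858 in Ctcf-null telencephalon and 48688 and 76145 in controls for the radial glial markers. For vessels and blood they were 2352 and 5349 in Ctcf-null telencephalon and 2851 and 6034 in controls for the endothelial markers, and 925000 and 627021 in Ctcf-null telencephalon and 1344560 and 576253 in controls for the erythroid markers. The microglial, choroid plexus, radial glial and endothelial sums differed more between the pairs than between the genotypes. For the neuronal and erythroid sums, the genotypes in pair 1 differed by more counts than the 2 Ctcf-null libraries did, but by fewer than the 2 controls did. Single abundant genes carried much of some of these sums. Tubb3 had 151648 and 114977 counts in Ctcf-null telencephalon and 237902 and 150029 in controls. Of the 8 neuronal markers, 6 had negative and 2 positive log2 fold changes (Dcx 0.16, Map2 0.07). Ttr had 94452 and 34808 counts in Ctcf-null telencephalon and 72064 and 23920 in controls. Most of the fall of the radial glial sum came from Fabp7 (-0.61). No marker was at 0 in any library. The part of these shifts in the members' fall was not tested.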

How the data were processed

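RNA was kept in RNAlater and converted to cDNA with a Clontech SMART kit for Illumina sequencing, per the labels' protocols. STAR 2.5.3, DESeq2 and mm10 are named by the submitters' processing notes, and a gene counter, annotation or strand setting was not given in the sources used here. The authors deposited normalized read counts, a signal not divided by gene length, and a log2 fold change per pair, which equals the log2 of (Ctcf-null + 1)/(control + 1) within 0.008. Whole reads were recovered: at least 99.97% of nonzero values were whole multiples of 1 read, within 0.005. The main test was limma 3.58.1 (R 4.3.3) on log2(normalized count + 1), with mean-variance trend and pair as a block, for 22158 genes kept by filterByExpr of edgeR 4.0.16, with Benjamini-Hochberg adjustment. The error of each gene was moderated across genes (19.1 residual plus prior degrees of freedom), so it rests mostly on other genes. Fold changes on this scale understate the change of low genes. The pairs come from the design text, and in a check the deviations from the group means correlated at 0.923 within them. edgeR and DESeq2 1.42.0 on recovered reads, other scalings, filters and pseudocounts, and fits without the block or a library were alternatives. Coordinates were taken from GENCODE M21 (GRCm38), which matched 48349 of 48795 identifiers, and sequences from RefSeq. Named members were those that passed, those with the largest difference between pairs, the highest and lowest per kb, and paralogs. Members and lists were chosen with earlier results of these data known.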

Additional observations from a re-analysis of the deposited data

How the results depend on the processing

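The members' median log2 fold change was -0.14 with edgeR TMM, -0.081 with edgeR upper-quartile scaling, -0.16 with DESeq2, -0.13 after centring and -0.062 after quantile normalization. For large-subunit genes these medians were -0.13, -0.078, -0.16, -0.12 and -0.056. For small-subunit genes they were -0.14, -0.087, -0.17, -0.14 and -0.070. For all tested genes they were -0.018, 0.033, -0.043, -0.010 and 0.0017, and -0.039 with no filter and -0.096 for genes with a mean of at least 50. Members that fell numbered 5 with TMM, 3 with upper quartile, 1 with DESeq2, 3 after centring and 1 after quantile normalization, against 15. In each of these alternatives the share of members that fell was below the share of all genes that fell. Over all genes, 1069 fell and 1358 rose with upper quartile, 543 fell and 289 rose with DESeq2, 1198 fell after centring and 916 fell after quantile normalization, against 2228 and 813. The correction for GC and length, chosen like quantile normalization after seeing the data, gave 11 members that fell and 1 that rose (Mrpl14), and turned Mrpl19 (-0.030) and Mrps16 (-0.015), neither of which had passed. The cause was not tested.

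Without the replicate block, 0 members fell, and 0 genes fell or rose in limma (170 at an unadjusted p under 0.05). Leaving out 1 library broke a pair, so these fits had no block, compared unequal pairs, assumed that the lone library varies like the others, and turned with the library left out. Members that fell were 0 to 0, all genes that fell 0 to 2 and that rose 0 to 0. Medians ranged from -0.73 to 0.42 for the members, -0.72 to 0.41 for the large subunit, -0.82 to 0.56 for the small subunit and -0.11 to 0.044 for all genes. Single log2 fold changes ranged from -0.74 to 0.23 (Mrpl20), -0.72 to 0.25 (Mrpl21), -0.74 to 0.19 (Mrpl22), -1.34 to 0.58 (Mrpl4), -1.06 to 0.45 (Mrpl44), -0.65 to 0.15 (Mrpl55), -0.54 to 0.21 (Mrps18a), -0.41 to 0.12 (Mrps18b), -0.67 to 0.10 (Mrps18c), -0.56 to 0.24 (Mrps21), -1.91 to 1.43 (Mrps26), -2.36 to 0.86 (Mrps30), -0.43 to 0.018 (Mrps33), -0.48 to 0.48 (Mrpl19), -0.15 to 0.45 (Mrpl33) and -0.98 to 1.02 (Mrps16). How depth limits the calls was not tested.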
